A study of Pinus elliottii with 16 samples.

Results

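The 167 features described here were higher in the vascular cambium of wounded slash pine (Pinus elliottii) at day 15 than at day 5 in trees that received no stimulant paste. They were chosen by a rule on the normalized fragment count of each feature, which is the number of fragments the authors estimated for it, scaled for library size. A feature entered if its value was 10 or more in at least 4 of the 16 libraries, if all 4 control libraries of day 15 exceeded all 4 of day 5, and if the mean difference of log2(value + 1) was 1 or more. Features whose 4 paste libraries of day 5 lay wholly above or wholly below the day 5 controls were left out. The files held 8949 features, of which 5856 passed the filter on low values. In 366 of these (6.25%) the control libraries of the days did not overlap and day 15 was higher, 195 (3.33%) also met the size limit, 28 were left out for their day 5 paste values, and 167 remained (2.85%).

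All trees were 16-year-old adults that had earlier been tapped every fortnight for a year with conventional paste, so the controls too have a history of paste. For the experiment the bark of every tree was stripped. Control trees received nothing more, and paste trees received a streak with 3% Ethrel, which releases the plant hormone ethylene, and 20% sulfuric acid on the fresh wound. Cambium was taken just above the wound on day 5 and day 15 from separate groups of 4 libraries each: control day 5, paste day 5, control day 15 and paste day 15. The labels name 4 trees picked at random but do not say which library came from which tree, so p-values measure only the spread between these libraries. An effect of time since the wound and an effect of the date of sampling cannot be told apart.

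The vascular cambium is the thin dividing layer that forms wood on its inner side and phloem on its outer side. In conifers, wounding is known to change what the cambium and its daughter cells make. The new wood can hold traumatic resin ducts lined by resin-secreting cells, walls near the wound are reinforced with lignin, and wound callus and periderm close the surface over the following weeks. Ethylene and jasmonate are known signals in the formation of such ducts. The files pair no feature with a gene name or function, so none of these programmes can be assigned to the members, and the markers of cambium, xylem or phloem could not be looked up. Features are given by their deposited identifiers. In bulk tissue, fewer cells of a type and less RNA per cell cannot be told apart.

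Depth ran from 3323974 to 5203871 estimated fragments per library, with 6351 to 6901 features detected. Replicate 1 of paste day 5 was a near copy of replicate 1 of paste day 15. Their Pearson correlation across the tested features was 0.986, while the next of the 120 pairs of libraries reached 0.945. The pair stands on opposite sides of every comparison of time within paste. Paste day 15 replicate 3 correlated better with paste day 5 (mean r = 0.901) than with its own group (mean r = 0.763). With the members left out of this measure the values were 0.902 and 0.773. These 3 libraries were kept under their labels, and results that rest on them are given with and without them.

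In control trees the members had a median log2 difference of 1.88 between day 15 and day 5, with a range of 1.02 to 6.48. The median over all tested features was 0.02. These values chose the members and are a description without a test. The difference was between 1 and 2 in 98 members, between 2 and 3 in 49 and above 3 in 20. The smallest member difference was 1.02, and the largest of the features that missed the size limit alone was 0.997. Values are not divided by feature length, so they compare libraries and not features. The mean value of a member in control day 5 ran from 0 to 6326, with a median of 16.9, and in control day 15 from 7.47 to 27101, with a median of 77.5. Of the 167 members, 30 reached a mean of 100 in control day 5 and 76 in control day 15. Without the control day 15 libraries, 144 members would still have reached a value of 10 in at least 4 libraries, so the others passed the filter on low values only with the help of the group in which they were high.

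Among members with a mean value of at least 50, PITA_000031465 had the largest control difference. Its values were 3.23, 1.85, 0 and 5.83 in the control day 5 libraries and 649, 700, 26.1 and 423 in those of day 15. All 4 libraries of day 15 thus lay above those of day 5, with replicate 3 far below the rest of its group. The log2 difference was 6.48, about 89.3-fold once 1 is added to each value, an addition that makes folds of low features too small. PITA_000056712 was next, with 20.2, 3.69, 12.6 and 9.72 at day 5 and 216, 172, 496 and 218 at day 15. Its log2 difference was 4.53, about 23.0-fold, and the day 15 libraries were close together apart from a higher replicate 3.

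Some members were listed at 0 in all 4 control day 5 libraries. There were 2 of these, a transcript-named feature and PITA_000056442, which was named after its values were seen. PITA_000056442 stood at 12.4, 6.51, 1.69 and 9.24 in control day 15, all low values, so no fold is given. At least 1 of the control day 5 libraries was listed at 0 in 23 of the 167 members (13.8%), against 3.57% of the tested features. The rule favours low control day 5 values and so favours this excess. The median of the mean values in control day 5 was 16.9 for members and 158 for all tested features. The identifiers fell into 3 kinds. Of the members, 136 began with PITA (81.4%), 23 with PITAhm (13.8%) and 8 had transcript names (4.79%), against 68.4%, 23.3% and 8.35% of the tested features. What the prefixes stand for is not given in the sources used here.

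**Figure D1:**
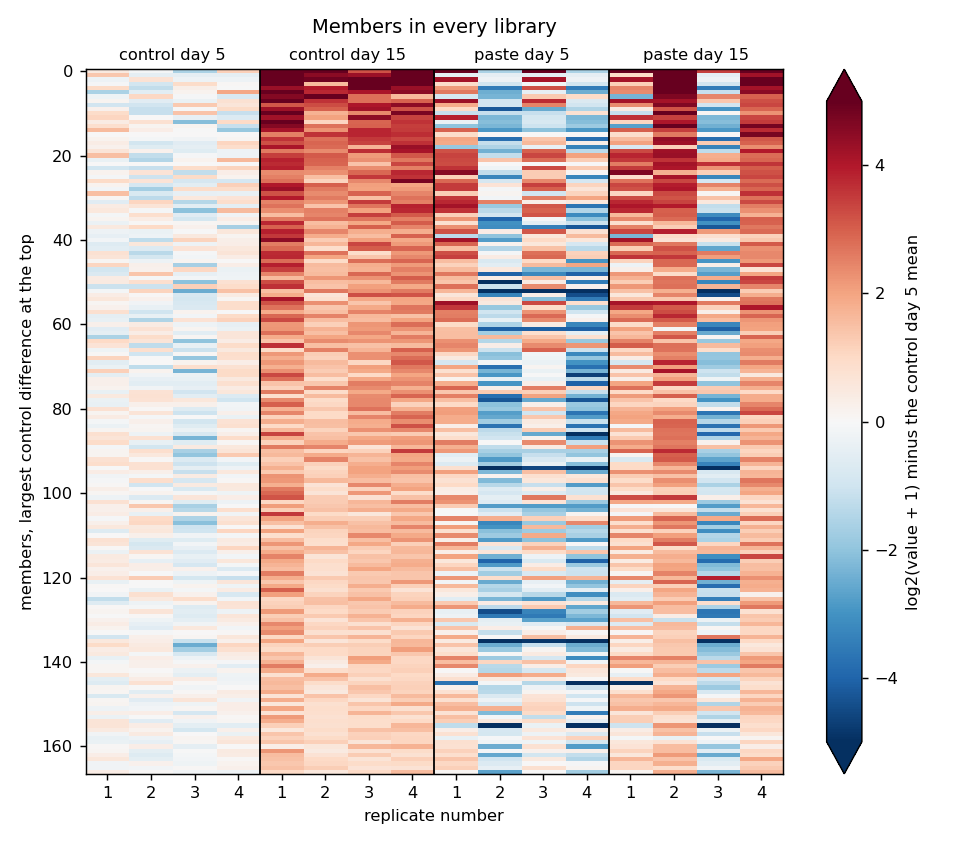
Each line across is 1 of the 167 members, ordered by the control difference, and each column is a library. Colour is log2(value + 1) minus the mean of the control day 5 libraries, with the scale ending at -5 and 5. The control day 15 block is red by the rule, while in the paste groups the colour changes from library to library, with replicates 2 and 4 of paste mostly blue at day 5 and mostly red at day 15, and replicate 3 of paste mostly blue at day 15.

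The filter on low values counted all 16 libraries, so paste values could help a feature to pass it. Beyond that filter, the paste day 15 libraries had no part in choosing the members, and the paste day 5 libraries only in leaving features out. The first question open to measurement is therefore where each paste library stood on the scale set by the controls. The yardstick is not free of the rule, which chose members for low control day 5 values, so a share above that of all tested features is favoured in every paste library. These values are a description, and the libraries can be read against each other. The highest control day 5 value was exceeded by 157 of 167 members in paste day 15 replicate 2 and by 156 in replicate 4, and by 122 in replicate 1. In paste day 15 replicate 3 it was exceeded by 37. Over all tested features the shares were 30.9%, 31.6%, 28.5% and 34.9% in replicates 2, 4, 1 and 3, against 94.0%, 93.4%, 73.1% and 22.2% of members. Thus 3 libraries of the group held most members above every day 5 control, and the library that resembled paste day 5 did not.

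At day 5 with paste, the highest control day 5 value was exceeded by 123 members in replicate 1, 76 in replicate 3, 20 in replicate 4 and 9 in replicate 2. As shares these were 73.7%, 45.5%, 12% and 5.39%, against 28.1%, 29.0%, 30.7% and 31.5% of the tested features. Replicate 1, the library nearly identical to a day 15 library, was the highest of its group in 134 of 167 members (80.2%), against 28.9% of the tested features. In paste day 15, replicate 3 was the lowest of its group in 147 members (88.0%), against 39.9% of the tested features. In 32 members all 4 paste day 15 libraries lay above all 4 of control day 5 (5.55% of the tested features). Replicates 2 and 4 alone did so in 149 members, against 21.1% of the tested features. Both counts use the control day 5 values that chose the members, and no weight rests on their excess over the tested features.

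**Figure D2:**
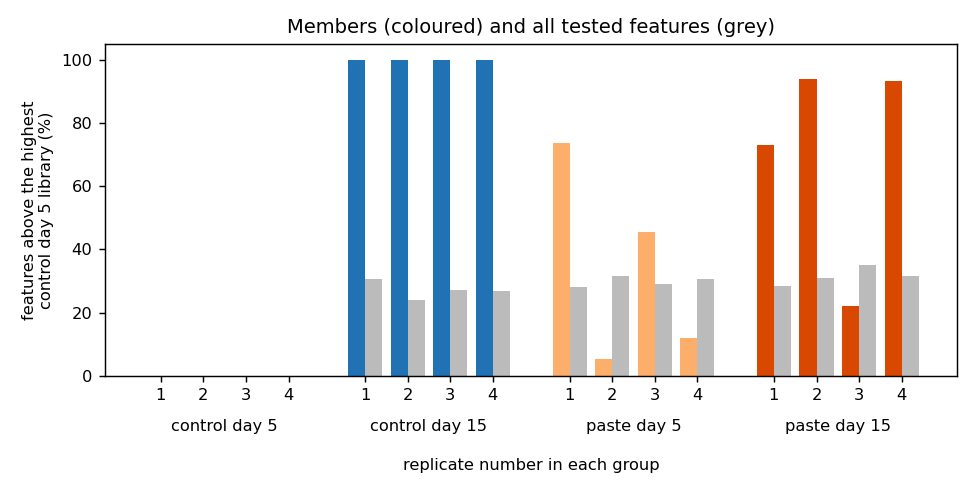
Bars give the share of features whose value in a library exceeded the highest control day 5 library, for the 167 members (coloured by group) and all 5856 tested features (grey). Control day 5 is at 0 and the members in control day 15 at 100% by construction, while the paste libraries range from 5.39% to 94.0% for members and only from 28.1% to 34.9% for all tested features.

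The same was seen in the size of the difference. Relative to the control day 5 mean, the median log2 value of the members was 2.20 and 1.92 in paste day 15 replicates 2 and 4, 1.37 in replicate 1 and -1.18 in replicate 3. In paste day 5 it was 1.42 in replicate 1, 0.40 in replicate 3, -1.12 in replicate 4 and -1.30 in replicate 2. The control day 15 libraries had medians of 1.37 to 2.15, which the rule fixed to be high. The median of all tested features lay between -0.03 and 0.03 in every library. Paste day 15 replicates 2 and 4 thus stood within or just above the range of the control day 15 libraries, and 3 paste libraries stood at or below -1.12.

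Members were also listed at 0 more often in the low libraries. There were 44 and 49 members at 0 in paste day 5 replicates 2 and 4 and 34 in paste day 15 replicate 3. In paste day 15 replicates 2 and 4 none of the 167 was at 0. Of all tested features 3.36%, 3.76% and 3.55% were at 0 in those low libraries, and 0.564% to 2.82% in the other 13. Members had lower values, with a median of the mean values in paste day 5 of 25.2, against 173 over all tested features. The member counts at 0 therefore compare libraries, and not members with all tested features. Fragment numbers in the low libraries, 3934730 to 4811486, lay within the range of the rest. The low libraries differed in other ways, with 6351 to 6437 features detected against 6532 or more in each of the other 13. Their scaled values summed to between 5.60e+06 and 5.95e+06, against 5.23e+06 or less in the others. The part of these differences in the member values was not tested. As a share of all signal in a library, the members together took 0.521% to 0.880% in control day 5 and 1.54% to 3.22% in control day 15. They took 2.30%, 0.294%, 0.965% and 0.219% in paste day 5 replicates 1 to 4 and 2.30%, 2.95%, 0.361% and 2.85% in paste day 15 replicates 1 to 4.

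**Figure D3:**
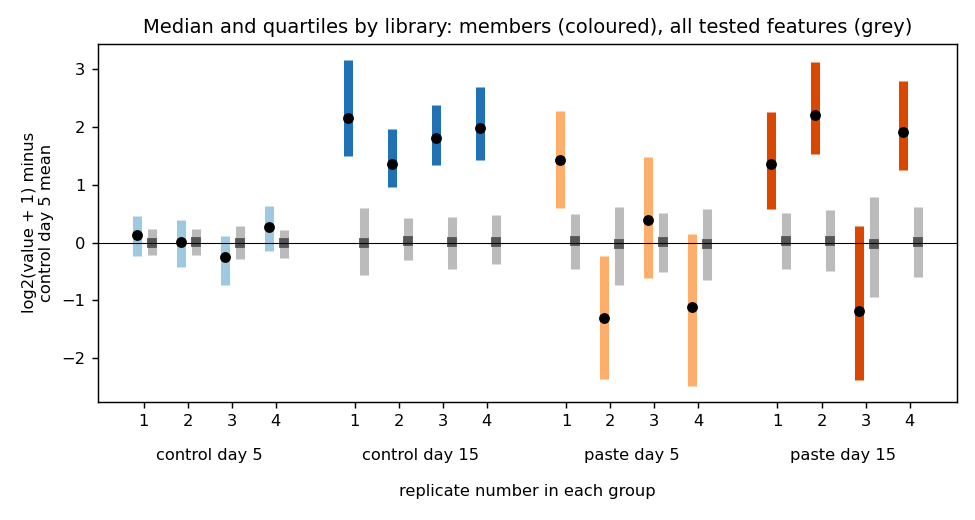
Points are the median over members (black circles) and over all tested features (grey squares) of log2(value + 1) minus the control day 5 mean, and bars span the quartiles. Member medians in the paste libraries run from -1.30 to 2.20, while those of all tested features stay near 0 in every library.

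The comparison of day 15 with day 5 within paste asked whether the features that separated the days after wounding alone also separated them with paste. The means it compares share no library by label with the control comparison. The test takes its spread from all 16 libraries, though, including the controls, and the rule favours tight control groups. Of the 167 members, 166 had a higher mean at day 15 (51.8% of the 5856 tested features), and 109 had a log2 difference of 1 or more (8.57% of the tested features). The median log2 difference of the members was 1.28, with a range of -0.44 to 3.40, beside a median of 0.02 over all tested features. The rule had removed features with paste day 5 wholly above or below control, which limits this difference at both ends.

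No member passed the test (limma, 0 of 167 and 0 of all 5856 features, 0%, smallest adjusted p = 0.819). At an unadjusted p below 0.05 there were 25 members higher at day 15 (2.19% of the tested features) and 0 lower (1.47%). A fit of the paste groups only, which leaves out the control spread, gave 6 higher (0.598%) and 0 lower (0.666%). Day 15 and day 5 were free of overlap in 1 member (0.599%), higher at day 15. This is near the share of the tested features, which was 0.359% in each direction. That member was PITAhm_000873, named after its values were seen. It stood at 80.4, 33.6, 75 and 32.7 in paste day 5 and at 88.3, 182, 97.3 and 306 in paste day 15. Its lowest day 15 library was thus just above its highest day 5 library, and both of these belong to the nearly identical pair. The log2 difference was 1.52 (SE 0.44, limma adjusted p = 0.819). In controls it went from 22.4 to 34.7 at day 5 to 80.9 to 219 at day 15.

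When paste day 15 replicate 3 and the nearly identical pair were left out, 97 of the 167 members were higher at day 15 (limma adjusted p below 0.05, 10.4% of the tested features) and 0 lower (9.38%). The median log2 difference of the members was then 2.84. A fit of the paste groups only, without these libraries and added after seeing the data, called 435 of the 5856 features. Of these, 36 were members, all higher at day 15. In 127 members the remaining day 15 libraries lay wholly above the remaining day 5 libraries (24.5% of the tested features), and in 0 wholly below (24.8%). These values rest on replicates 2 and 4 alone at day 15 and on replicates 2, 3 and 4 at day 5, and removing replicate 3 because it resembled day 5 in itself favours a difference. Without paste day 15 replicate 3 alone the count of members called was 0, with 110 higher at an unadjusted p below 0.05 (13.8% of the tested features) and 39 higher without overlap (6.18%). Without the pair alone the count called was 0 as well, with 61 higher at an unadjusted p below 0.05 (4.95%).

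**Figure D4:**
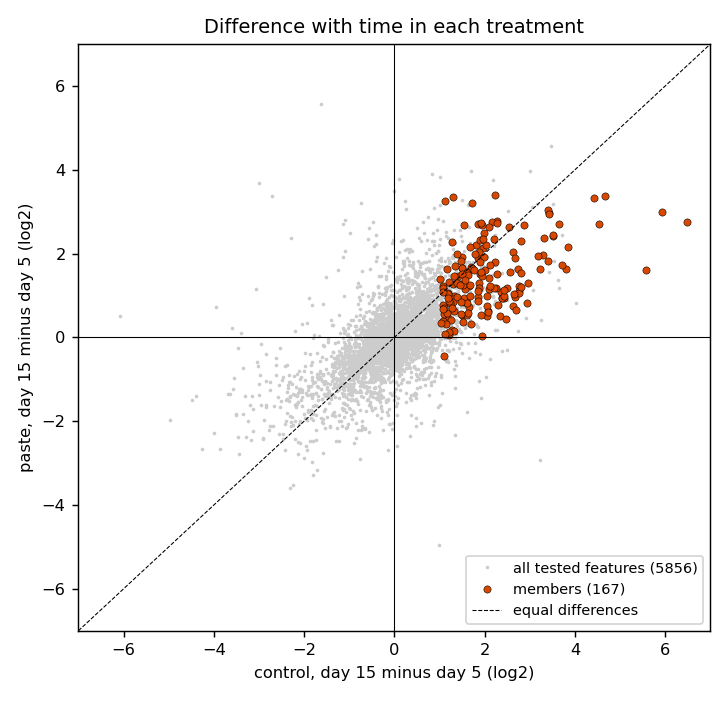
Each point is a feature, with the mean log2 difference of day 15 minus day 5 in controls on the x axis and in paste on the y axis, for all 5856 tested features (grey) and the 167 members (orange). Members lie to the right of 1 by the rule, 166 of them lie above 0 on the y axis, and the dashed line marks equal differences.

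Among the members with a mean value of at least 50, PITA_000031104 had the largest difference within paste. Its values were 128, 0, 0 and 0 in paste day 5 and 113, 140, 0 and 97.8 in paste day 15. At day 5 only replicate 1 was above 0, and at day 15 only replicate 3 was at 0. The log2 difference was 3.40 (SE 1.71, limma adjusted p = 0.819), and without the 3 libraries it was 6.88 (SE 0.91, limma adjusted p = 0.00157). In controls it was at 6.31 to 111 on day 5 and at 114 to 251 on day 15.

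PITA_000020140 had nearly the same pattern, with 99.4, 0, 1.51 and 0 in paste day 5 and 88.3, 206, 0 and 145 in paste day 15. Its log2 difference was 3.35 (SE 1.59, limma adjusted p = 0.819), and without the 3 libraries it was 7.0 (SE 0.61, limma adjusted p = 0.000243). The control libraries stood at 32.8 to 104 on day 5 and 110 to 291 on day 15. In both features, then, the paste libraries were either near the control level or close to 0. Leaving out the 3 libraries took away the only high day 5 value and the only 0 of day 15, which in itself favours a difference. A fit of the paste groups only without them gave limma adjusted p = 0.0127 for PITA_000031104 and limma adjusted p = 0.0132 for PITA_000020140.

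PITA_000047749 was the only member whose mean within paste was lower at day 15. It stood at 50.1, 62.4, 106 and 147 in paste day 5 and at 61.0, 49.9, 64.4 and 71.6 in paste day 15. The ranges overlapped, and the log2 difference was -0.44 (SE 0.31, limma adjusted p = 0.819). In controls its values were 50.1 to 91.3 at day 5 and 127 to 148 at day 15, a log2 difference of 1.09, close to the limit of the rule.

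The member with the largest values, PITA_000009570, was named after its values were seen. It stood at 4238, 6963, 4675 and 6714 in control day 5 and at 13861, 8545, 23189 and 11453 in control day 15. In paste day 5 it was at 31035, 1547, 3077 and 616, and in paste day 15 at 29755, 31591, 2185 and 24401. Paste day 15 replicates 1, 2 and 4 thus lay above every control library, and replicate 3 lay below every control library. The log2 difference within paste was 2.28 (SE 1.01, limma adjusted p = 0.819).

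**Figure D5:**
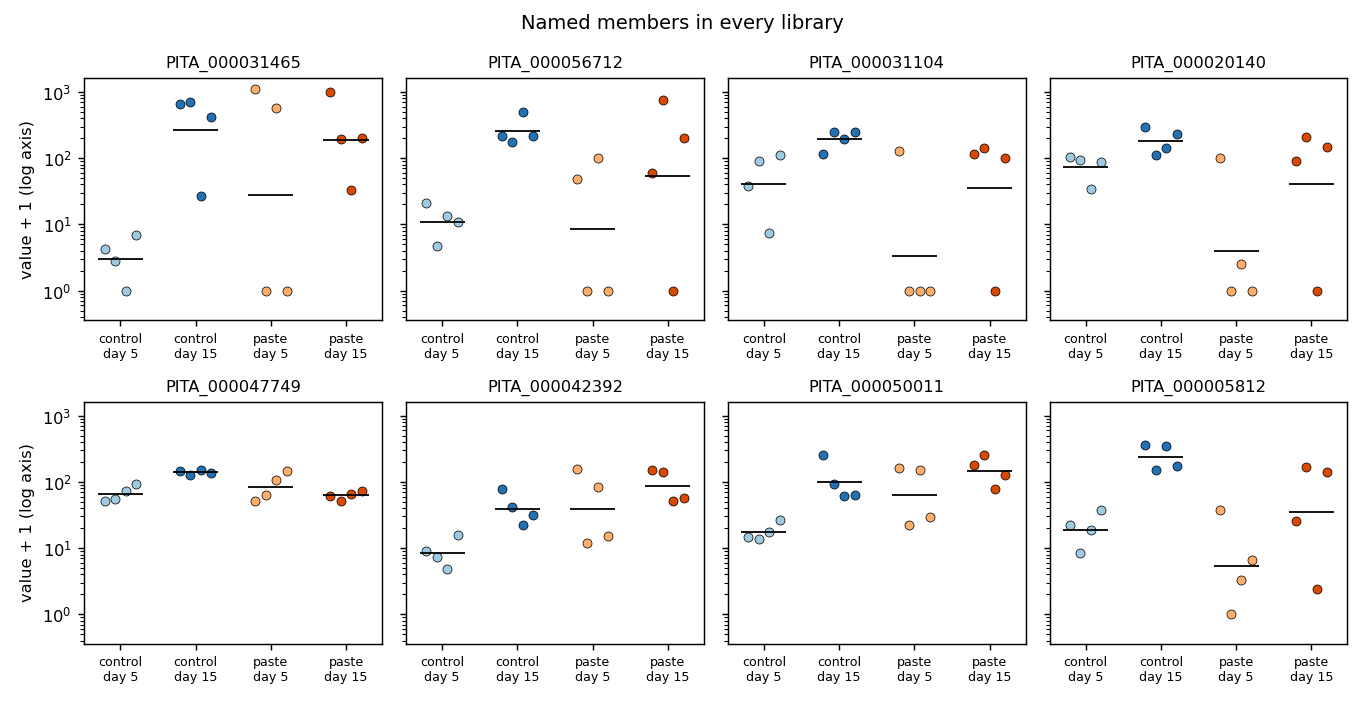
Points are the value + 1 of the 8 members named by rule in each of the 16 libraries, on a log axis, and lines are the means of the log values (n = 4 libraries per group). Control day 15 lies above control day 5 in every panel, while the paste groups overlap in all 8.

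At day 15, paste and control can be set side by side, but the control day 15 libraries chose the members, so a lower paste value is favoured by the rule and no test is given. Of the 167 members, 30 had a higher mean with paste than in control (48.3% of the tested features), and the median log2 difference was -0.78, beside -0.02 over all tested features. The sign of that median depended on the libraries, with -0.06 when only replicate 3 of paste was removed and 0.27 without the 3 libraries. All 4 paste libraries lay below all 4 controls in 4 members (2.40%, against 1.72% of the tested features) and above them in 0 (1.91%). The share below is near that of the tested features, in the direction that the rule favours. The 4, named after their values were seen, were PITA_000023972, PITA_000047749, PITAhm_000046 and PITAhm_000672. In paste day 15 replicate 2, 98 members lay within the range of the control day 15 libraries, 52 above and 17 below it. In replicate 4 these counts were 120, 27 and 20, in replicate 1 they were 74, 20 and 73, and in replicate 3 they were 22, 3 and 142.

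The members ranked by this comparison were again those with a mean value of at least 50. PITA_000042392 stood highest with paste, at 148, 140, 50.1 and 55.1 against 76.2, 40.0, 21.1 and 31.1 in control, a log2 difference of 1.18. In paste day 5 its values were 156, 10.8, 81.8 and 14.2, so replicates 1 and 3 were already above every day 15 control. PITA_000050011 was next, at 177, 254, 75.8 and 124 with paste against 257, 93.0, 60.7 and 61.3 in control, a log2 difference of 0.56. The groups overlapped in both features.

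At the other end, PITA_000005812 stood at 24.7, 165, 1.43 and 140 with paste against 355, 148, 347 and 171 in control, a log2 difference of -2.77. Replicates 2 and 4 were close to the control range and replicates 1 and 3 far below it. In paste day 5 it was at 37.2, 0, 2.27 and 5.69. PITA_000031104, described above, was next with a log2 difference of -2.44. PITA_000056712 stood at 58.6, 754, 0 and 198 with paste at day 15 and PITA_000031465 at 1000, 197, 31.5 and 199, so replicate 1 was low in the former and the highest library of its group in the latter.

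Members differed in how they stood with paste at day 5, a split made after their values were seen and given without a test. In 28 members the paste day 5 mean was higher than control by a log2 value of 1 or more, in 94 it was within 1, and in 45 it was lower by 1 or more. The first class had a median log2 difference with time of 2.36 in controls and 0.95 within paste. The second had 1.70 and 1.09, and the third 1.86 and 2.15. At day 15 the first class had a median difference between paste and control of 0.27, with 20 of 28 higher with paste, and the third of -1.53, with 0 of 45 higher. The comparison within paste shares the paste day 5 libraries with the split, and the split favours a smaller difference with time in the first class and a larger one in the third.

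The spread between libraries is given as a description, since the rule bears on it. It required control groups that do not overlap, which favours tight control groups, and paste day 5 libraries not wholly to 1 side of control. The median SD of the log2 values of a member was 0.64 in control day 5 and 0.65 in control day 15, and 1.57 and 1.75 in paste day 5 and day 15. For all tested features the medians were 0.38, 0.44, 0.55 and 0.65. Without the 3 libraries the members had 1.24 in paste day 5 (3 libraries) and 0.50 in paste day 15 (2 libraries), beside 0.50 and 0.29 for all tested features. At day 15 the median over all tested features fell as well, from 0.65 to 0.29. An SD of 2 libraries, with the outlying library among those removed, cannot settle whether the spread of the members was wider with paste. Ordered by the group means, control day 15 was the highest group in 137 members (30.0% of the tested features) and paste day 15 in 30 (17.9%). These 30 are 18.0% of the members, but the shares are not like for like. Control day 5 was the highest group in 24.2% of the tested features, and the rule keeps it from being so in a member. The same 30 are the members given above as higher with paste than in control at day 15, against 48.3% of the tested features. Paste day 5 was the lowest group in 93 members (32.1% of the tested features), control day 5 in 73 (23.0%) and paste day 15 in 1 (18.4%). In 124 of the 167 members the order was control day 15, then paste day 15, then both day 5 groups, an order found in 13.1% of the tested features. The rule fixes the order of the control groups in all of these counts. Control day 5 could thus not be the highest group, nor control day 15 the lowest, in a member.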

How the data were processed

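RNA of 16 libraries was depleted of ribosomal RNA and sequenced single-end with reads of 125 bases, per the labels' protocols. The submitters' processing notes list Trimmomatic 0.32, Cufflinks 2.1.1, HISAT2 2.0.4 and FastQC. Not given in the sources used here are the build, the annotation, the use of strand and the handling of multiply mapped reads. Values of overlapping features and of near copies are therefore uncertain.

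Per the file headers and the values, what the authors deposited is a signal, namely estimated fragments per feature scaled for library size. Low values lie near multiples of 1 step per library, and the sum over the step gives the estimated fragments. The values were not recovered as whole reads, so no count model was run.

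The members and lists were chosen with earlier results of these data known. The 5856 features with a value of 10 or more in at least 4 libraries were fitted with limma 3.58.1 in R 4.3.3 on log2(value + 1), with 4 group means over 16 libraries, an intensity trend and robust variances. Paste day 15 was tested against paste day 5, two-sided, with Benjamini-Hochberg adjustment over all 5856 and a threshold of 0.05. The fit was tested on simulated data. The other comparisons used libraries that chose the members and are given as values. The members named by rule are those with a mean value of at least 50 and the 2 largest differences in each direction of each comparison. Alternatives were pseudocounts of 0.5 and 4, no filter and a filter at 50, 3 other scalings, library quality weights, a fit of the paste groups only, a block for the replicate number, and fits without single libraries or without low-data features. A fit of the paste groups without 3 libraries was added after seeing the data.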

Additional observations from a re-analysis of the deposited data

Results flagged for a closer look

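In all, 5 single values stood far outside the rest of their group on the log2 scale, out of 40 groups of 4 values examined. In unselected, independent groups with normal spread, about 1 in 20 would be flagged. That rate does not apply here, since features were named by their values, the same libraries recur and some groups hold tied values of 0. For PITA_000031465 it was replicate 3 of control day 15, with 26.1 where the others had 423 to 700. PITA_000031104 gave a pair of such values. Replicate 1 of paste day 5 had 128 where the others had 0, and replicate 3 of paste day 15 had 0 where the others had 97.8 to 140. PITA_000020140 also gave a pair. Replicate 3 of paste day 15 had 0 where the others had 88.3 to 206, and replicate 3 of control day 5 had 32.8 where the others had 86.5 to 104. Of the 5 values, 3 fall on libraries whose likeness to the other paste group is given above. The part of that likeness in these values was not tested.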

How the results depend on the processing

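The rule gave 102 members with a filter at 50 and 158 to 203 under the other scalings, pseudocounts and filters, and 181 to 274 when it was applied without a control library. It gave 274 without control day 15 replicate 2, and 164 of the 167 were among these. Within paste, the mean of 159 to 166 of the 167 members was higher at day 15 under every alternative on all 167. Features called over all tested numbered 0 in each of the fits with 1 library left out, and 1156 with the 3 libraries left out. Members called were 0 and 97 in these fits. A fit of the paste groups without the 3 libraries called 435 features, 36 of them members. Members higher at an unadjusted p below 0.05 are given with the share of all tested features in brackets. They numbered 10 with the filter at 50 (1.87%), 6 in the fit of the paste groups only (0.598%), 76 with library quality weights (8.21%), 61 without the pair (4.95%), 134 without the 3 libraries (19.1%) and 107 in the paste groups without them (12.8%). Without 1 library they numbered 4 to 110, the extremes being paste day 15 replicates 4 (0.581%) and 3 (13.8%), with 81 (7.12%), 7 (1.02%) and 8 (0.905%) when replicate 1, 2 or 4 of paste day 5 was left out, and 7 (0.854%) when replicate 2 of paste day 15 was. Members lower numbered 0 to 1. Members without overlap, all higher at day 15, numbered 0 when libraries were scaled to the total (0.188% of all tested features), 9 without the pair (2.73%), 127 without the 3 libraries (24.5%) and 1 to 39 without 1 library (0.359% to 6.18%). The median log2 difference of the members within paste was 0.87 to 2.06 without 1 library and 2.84 without the 3. Against control at day 15 their median was -1.17 to -0.06 without 1 library and reversed to 0.27 without the 3. Scaling to the total moved the median of all tested features within paste by 0.12, to 0.14, beside 1.35 for the members. The cause of these moves was not tested. Of 240 values of the 8 named members under alternatives, 0 reversed and 7 passed the threshold, all without the 3 libraries.

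With the replicate number as a block, 0 features were called. At an unadjusted p below 0.05, 24 members were higher (2.07% of the tested features) and 0 lower (1.18%). Same-numbered paste libraries had correlations of their deviations from the group means of 0.577, -0.266, -0.201 and -0.311 for numbers 1 to 4. Of these, only that of number 1, the nearly identical pair, was positive. Same-numbered control libraries, which enter the same fit, had 0.273, 0.559, 0.291 and 0.245, all positive. Unlike numbers were not compared in this measure. By correlation across the tested features, control day 5 replicates 2, 3 and 4 were each closest to the same number in control day 15 (0.945, 0.897 and 0.937). Control day 5 replicate 1 was closest to number 2 (0.921, against 0.888 for number 1), and control day 15 replicate 3 to number 4 of day 5 (0.913). Whether equal numbers mark pairs in either treatment was not tested, and these values do not settle it. Depth limits what can be said of the lowest members, which stand at a few fragments in a library.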

Other observations

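The features that met the rule on the controls but were left out for their day 5 paste values stood apart from the members within paste. The 18 with all paste day 5 libraries above control had a median log2 difference of 0.13 between day 15 and day 5 within paste, and 10 of the 18 were higher at day 15. The 10 with all paste day 5 libraries below control had a median of 1.75, and all 10 were higher at day 15. In controls the medians were 1.71 and 1.46. These features were set apart by their paste day 5 values, which enter the comparison, so no test is given.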
